A study of Populus deltoides x Populus x canadensis with 6 samples.

Results

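The 150 genes described here are those that stood out most in the stem of a brassinosteroid receptor mutant of poplar among genes that the wild type stem also expresses. They were taken from 35792 rows of the deposited table by 1 rule. A gene had to carry a numbered chromosome in its Potri identifier and reach a mean of at least 5 CPM (a count scaled by the total of its library) over the wild type libraries. These conditions left 19059 eligible genes. The 150 with the highest ratio of mean mutant CPM plus 1 to mean wild type CPM plus 1 were then taken. The members were thus chosen by their measured mean levels in both genotypes, and their differences between genotypes are given as a description.

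All 6 libraries came from the hybrid poplar clone Nanlin 895, labelled as a cross of Populus deltoides with Populus x canadensis (the label spells the first parent deltoedes). The 3 wild type libraries (genotype WT) and the 3 libraries of the genotype pdbri1-1;2;3;6 were made from stems of plants 45 days old, raised in a greenhouse with a daily 16 h of light and 8 h without. Each library pools the basal 2 cm of the leafless stem of 30 plants, and the 3 pools of each genotype are described as biological replicates. Per-plant variation is not seen in such pools, the spread between libraries is a spread between pools, and the labels do not say how many independent lines carry the mutations. Library totals ran from 17752822 to 21096052 counts. The deposited columns give neither names nor functions for the identifiers, so neither the mutated receptor genes nor markers of stem cell types were checked here, and genes are named by identifier.

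Brassinosteroids are steroid hormones of plants. BRI1 is a receptor kinase of the plasma membrane that binds them outside the cell, and the signal passes from it, with a co-receptor, to transcription factors of the BZR1 family, which activate some genes and repress others. In stems the hormones are known for their part in cell elongation, in the division of the cambium and in the formation of xylem, the wood. Loss of BRI1 function dwarfs Arabidopsis plants. The question addressed was which genes, already active in the wild type stem, stood at the highest multiple of that activity in the mutant. In a bulk stem sample, a larger share of cells that express a gene and more RNA per cell cannot be told apart.

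As a group the 150 genes took a larger share of the counts in the mutant than in the wild type. Their counts added up to 0.311%, 0.308% and 0.301% of all counts in the wild type libraries and to 2.54%, 2.49% and 2.58% in the mutant libraries. The means were 0.307% ± 0.005 and 2.54% ± 0.05 (SD, n = 3 each), a ratio of 8.28, or 7.60 when libraries were scaled by TMM factors in place of their totals. No mutant library came near any wild type library in this sum. The rule took genes by their ratio, so this separation follows from the choice of the members. The 10 members with the highest mutant CPM held 25.3% of the members' mutant CPM.

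For single members the ratio of the rule ran from 4.91 to 56.9, with a median of 7.55 and quartiles of 5.89 and 10.8. The median over all eligible genes was 1.04. The added 1 CPM pulls the ratio down for genes with few counts, and the plain ratio of mean CPM ran from 5.07 to 64.1 with a median of 8.03. By the plain ratio, 77 members were at least 8-fold, 17 at least 16-fold and 5 at least 32-fold higher in the mutant. In each of the 150 genes the lowest mutant library stood above the highest wild type library, by a factor of 4.33 or more, with a median factor of 6.96. Of all 27382 genes tested, 44.7% had such an arrangement of their libraries in CPM by library totals, and 40.7% of the eligible genes had it. All 150 were called higher by edgeR's quasi-likelihood test with TMM factors at an adjusted p under 0.05. The shares were 33.1% of all genes tested and 27.0% of the eligible genes. TMM factors were 0.957 to 0.960 for wild type and 1.04 to 1.05 for mutant libraries. Scaling by totals thus places mutant levels relatively higher than TMM does. Both counts follow from the choice of the members.

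**Figure D1:**
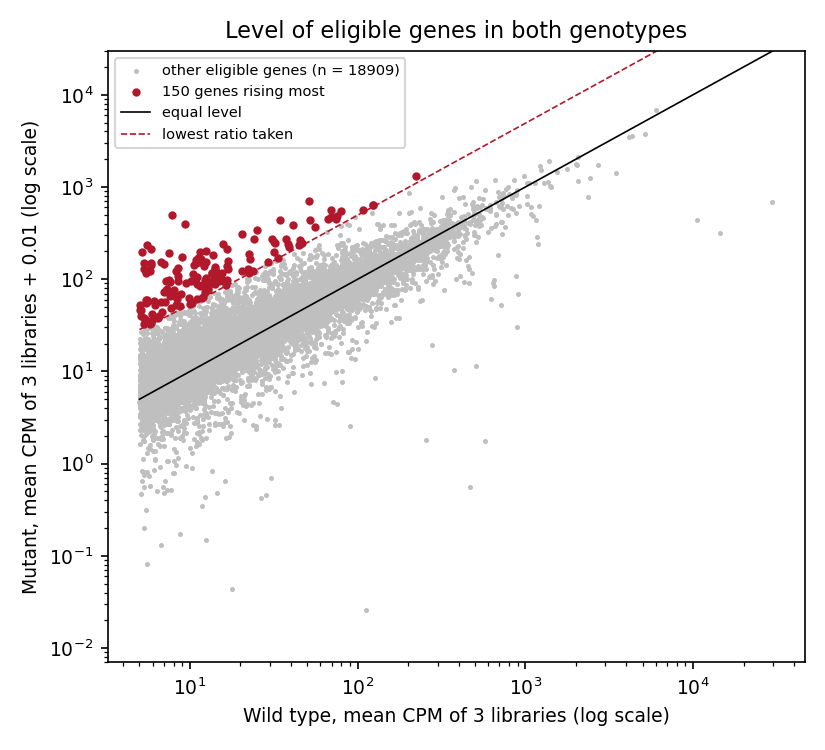
Mean CPM in the mutant (vertical axis, log scale, with 0.01 added) against mean CPM in the wild type (horizontal axis, log scale), for 19059 eligible genes. The 150 genes (red) lie on or above the dashed line of the lowest ratio taken, 4.91, and crowd at the left, where the wild type level is low.

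The gene at the head of the list stood apart from the others. Potri.017G135000.v4.1 (chromosome 17, 1549 bp) was at 7.85, 7.92 and 7.54 CPM in the wild type libraries and at 502, 483 and 508 CPM in the mutant libraries. The wild type pools nearly coincided, as did the mutant pools, and the distance between the genotypes exceeded the spread of the pools many times. Its means were 7.77 ± 0.21 and 498 ± 13.1 CPM (SD, n = 3 each), a plain ratio of 64.1. Per length, its level went from 5.02 ± 0.13 to 321 ± 8.44 FPKM (CPM divided by gene length in kilobases; SD, n = 3 each). Ordered by mean FPKM among the eligible genes, it moved from position 15984 in the wild type to position 167 in the mutant.

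The next genes formed a group with plain ratios of 35.9 to 42.8. Potri.003G138600.v4.1 (chromosome 3, 2009 bp) had 9.19, 9.25 and 9.48 CPM in the wild type and 423, 385 and 388 CPM in the mutant, a plain ratio of 42.8. Mutant replicate 1 was the highest of its libraries. Potri.009G101900.v4.1 (chromosome 9, 2135 bp) had 5.63, 5.63 and 5.40 CPM against 228, 231 and 242 CPM, a plain ratio of 42.1. Here mutant replicate 3 was the highest. Potri.004G140900.v4.1 (chromosome 4, 1867 bp) had 5.18, 4.60 and 5.74 CPM against 197, 201 and 194 CPM, a plain ratio of 38.2. Potri.008G134000.v4.1 (chromosome 8, 1094 bp) had 6.57, 5.82 and 5.21 CPM against 206, 207 and 219 CPM, a plain ratio of 35.9. In each of these genes the mutant libraries differed from each other by far less than they did from the wild type.

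The members ranked 6 to 10 were close to each other in ratio. They are Potri.001G235800.v4.1, Potri.017G099000.v4.1, Potri.017G110800.v4.1, Potri.009G089400.v4.1 and Potri.012G126100.v4.1, with wild type means of 5.35 to 7.46 CPM, mutant means of 129 to 191 CPM and ratios of the rule from 23.6 down to 20.5. Of the 10 genes of highest ratio, 3 carry chromosome 17 in their identifier and 2 chromosome 9. Their wild type levels all lay under 10 CPM, close to the minimum that the rule sets.

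**Figure D2:**
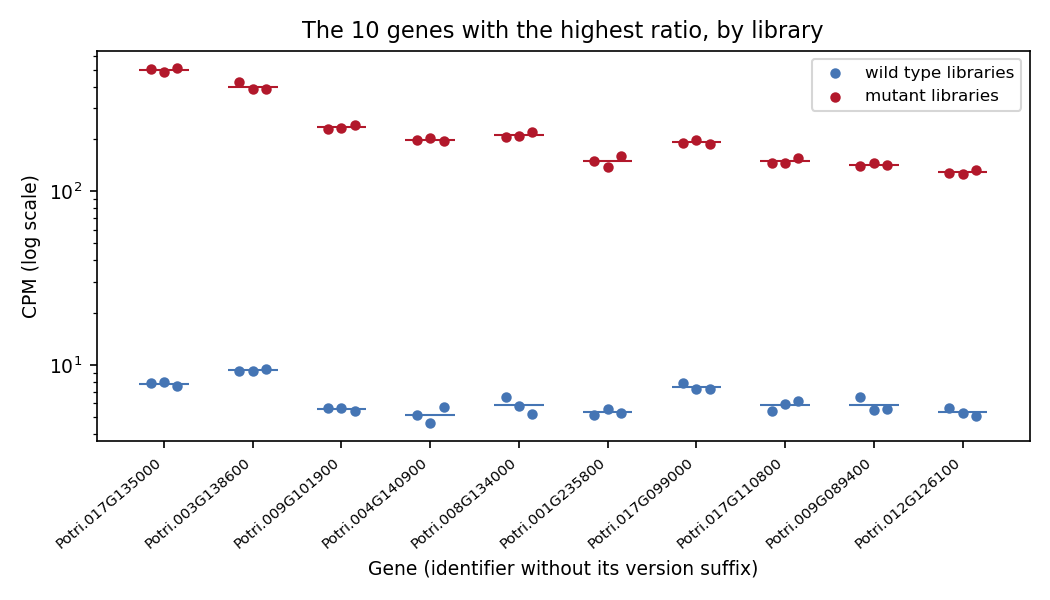
CPM (log scale) of the 10 genes with the highest ratio, with 1 point for each of 3 wild type (blue) and 3 mutant (red) libraries and a line at each mean. The points of a genotype nearly coincide in every gene, with the widest wild type spread in Potri.004G140900.v4.1 and Potri.008G134000.v4.1.

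The rule draws its limit through a smooth run of values. The last genes taken were Potri.004G003000.v4.1, Potri.003G136700.v4.1 and Potri.006G141500.v4.1, with ratios of 4.95, 4.93 and 4.91. The first genes not taken were Potri.004G233500.v4.1, Potri.009G149200.v4.1 and Potri.007G048101.v4.1, each with a ratio of 4.90. The levels of these 3 differed widely, from 3.09 to 73.8 FPKM in the wild type and from 17.3 to 365 FPKM in the mutant. Nothing in the values parts the members from the genes that follow them.

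**Figure D3:**
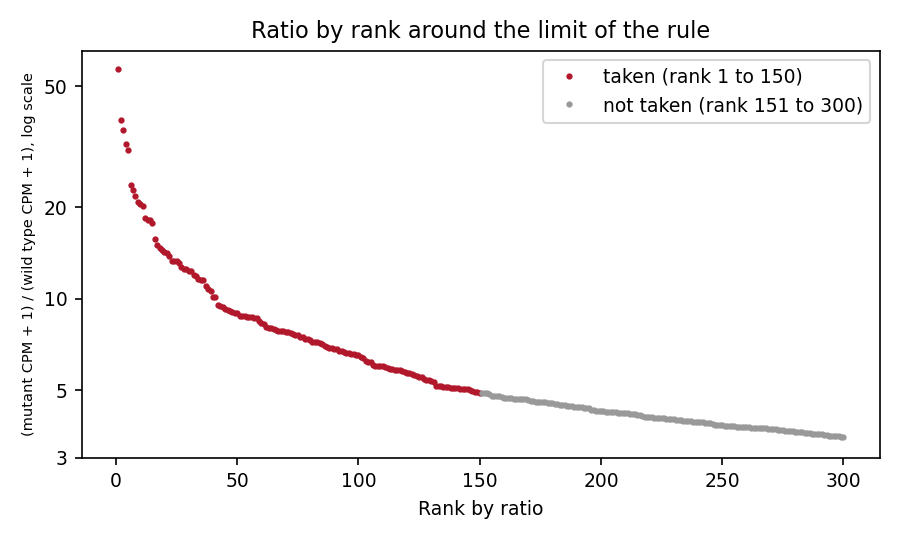
Ratio of the rule (log scale) against rank, for the 150 genes taken (red) and the 150 that follow (grey). The curve is steep over the first 10 ranks, from 56.9 to 20.5, and passes the limit at 4.91 without a step.

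The members were mostly low in the wild type and high in the mutant. Placed by mean FPKM among all 19059 eligible genes, their median percentile was 29.8 for the wild type and 93.8 for the mutant. In the wild type, 11 of the 150 were in the top 10% and 101 lay below the eligible median. For the mutant, 103 were in the top 10% and 2 lay below the median. Mean FPKM ran from 1.31 to 203 in the wild type, with a median of 7.72, and from 10.5 to 1346 in the mutant, with a median of 83.5. The rule takes the highest ratios between the genotypes, so this shift follows from the choice of the members.

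**Figure D4:**
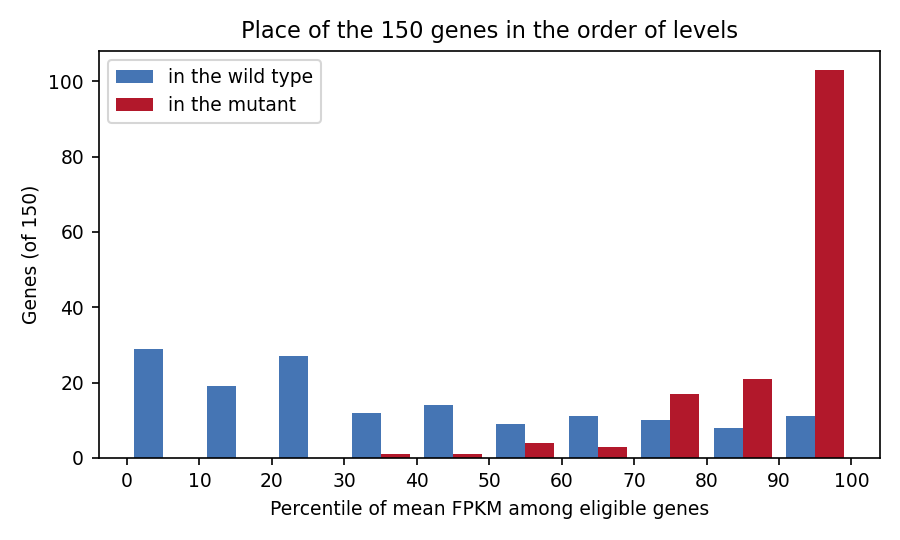
Number of the 150 genes (vertical axis) in each step of 10 percentiles of mean FPKM among eligible genes (horizontal axis), for wild type (blue) and mutant (red) libraries. The blue bars are spread with most at the low end, and 103 genes stand in the last red bar.

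The share of eligible genes that met the rule fell with the wild type level. It was 1.75% (58 of 3315 genes) between 5 and 10 CPM, 1.18% (54 of 4564) between 10 and 20 CPM, 0.395% (25 of 6329) between 20 and 50 CPM, 0.299% (9 of 3011) between 50 and 100 CPM and 0.217% (4 of 1840) from 100 CPM upwards. The highest ratio in these classes was 56.9, 15.7, 14.4, 13.4 and 5.87 in that order. A ratio of at least 16 was found for 15 members, all of them in the lowest class. These levels were part of the rule, so the order is a description.

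A few members were already abundant in the wild type and stood near the top of the eligible genes in the mutant, by mean FPKM. Potri.002G203500.v4.1 (chromosome 2, 276 bp) had the highest mean FPKM of all members in both genotypes, at 203 ± 2.83 in the wild type against 1346 ± 75.2 for the mutant (SD, n = 3 each). Its libraries read 55.1, 56.4 and 56.5 CPM in the wild type and 368, 353 and 394 CPM in the mutant. Its ratio of the rule, 6.53, was below the members' median. The gene moved from position 332 to position 13 among the eligible genes by mean FPKM. For so short a gene the FPKM depends strongly on the length the authors used.

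The member that took the most counts was Potri.008G069400.v4.1 (chromosome 8, 3273 bp). It had 223, 225 and 219 CPM in the wild type libraries and 1355, 1283 and 1293 CPM in the mutant libraries, with means of 222 ± 3.24 and 1310 ± 38.7 CPM (SD, n = 3 each). Its plain ratio was 5.89. Potri.001G278500.v4.1 (chromosome 1, 1648 bp) combined a high level with a large ratio. Its libraries read 51.0, 53.3 and 50.4 CPM in the wild type and 708, 691 and 704 CPM in the mutant, a plain ratio of 13.6, and its mean level per length went from 31.3 ± 0.93 to 425 ± 5.54 FPKM (SD, n = 3 each). No library of either gene overlapped with the other genotype.

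The other members among the 10 highest in mutant FPKM had ratios of the rule from 4.99 to 7.94. Potri.007G138100.v4.1 went from 112 ± 2.51 to 579 ± 31.8 FPKM, Potri.014G017300.v4.1 from 68.5 ± 3.50 to 551 ± 9.85 FPKM, and Potri.002G119300.v4.1 from 70.3 ± 3.91 to 491 ± 3.51 FPKM (SD, n = 3 each). Potri.018G078801.v4.1, Potri.011G129100.v4.1, Potri.016G071600.v4.1 and Potri.005G206901.v4.1 reached 493, 424, 416 and 368 FPKM in the mutant. None of the 10 genes of highest ratio was among the 10 of highest mutant FPKM. The lengths of Potri.018G078801.v4.1 and Potri.005G206901.v4.1 are only 192 bp and 147 bp, and their FPKM depend on these lengths in the same way.

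Members were shorter than the eligible genes as a whole. Gene length was not used by the rule. The median was 1530.5 bp, with quartiles of 1095 and 2306 bp, against 1983 bp, with quartiles of 1331 and 2982 bp, over all eligible genes. Genes under 1000 bp numbered 30 of the 150 members, against 12.5% of the eligible genes. Length and level go together among eligible genes, and the difference was seen at both levels. Between 5 and 20 CPM in the wild type the medians were 1501 bp for 112 members and 1744 bp for the eligible genes, and from 20 CPM upwards they were 1667.5 bp for 38 members and 2218.5 bp for the eligible genes. The members' lengths still spanned 147 to 4982 bp.

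The members lay on all 19 chromosomes. Per 1000 eligible genes there were 7.87 members in all, with the most on chromosome 17 (13.8, from 9 members of 654 genes) and chromosome 12 (12.3, 8 of 653). The fewest were on chromosome 13 (1.37, 1 of 729) and chromosome 15 (2.77, 2 of 722). Chromosome 1 held the largest number, 18. Numbers this small leave most of these rates poorly determined, and they were not tested.

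Most members had no other member close by in the order of identifiers, but a larger share of them did than of the eligible non-members. Taking the order of identifier numbers as the order of genes, 4 members had another member in the next row, 6 within 3 rows and 24 within 10 rows. These counts are 2.67%, 4.0% and 16.0% of the members. Of the eligible non-members, 0.910%, 2.59% and 8.24% had a member within the same distances. No run of 3 or more members occurred. The densest stretch of 100 rows, on chromosome 6 from Potri.006G138700.v4.1 to Potri.006G141500.v4.1, held 4 members. Reads shared between close copies could not be looked at, which leaves the single values of neighbouring members uncertain.

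The 2 adjacent pairs, named because of their position after the values were seen, lie on chromosomes 6 and 18. Potri.006G138700.v4.1 read 5.57, 5.28 and 5.55 CPM in the wild type and 118, 108 and 124 CPM in the mutant, and its neighbour Potri.006G138800.v4.1 read 22.1, 19.8 and 19.5 CPM and 304, 296 and 325 CPM. Their plain ratios were 21.3 and 15.1, and their wild type means per length were 5.10 and 21.3 FPKM. In both genes mutant replicate 3 was highest and mutant replicate 2 lowest. On chromosome 18, Potri.018G095100.v4.1 read 12.3, 13.3 and 11.6 CPM and 102, 98.1 and 112 CPM, with a plain ratio of 8.42. Its neighbour Potri.018G095200.v4.1 read 4.57, 5.48 and 4.98 CPM and 51.3, 53.3 and 54.9 CPM, with a plain ratio of 10.6, and its wild type mean of 5.01 CPM was the lowest of all members.

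Genes around the members did not share their change to any like extent. For each member, the median log2 fold change (edgeR, mutant over wild type, TMM factors) was taken over up to 25 tested non-members per side. Some members near a chromosome end had fewer, down to 29 on both sides together. These medians ran from -0.17 to 0.39, with a middle value of 0.02, and 147 of 150 lay within 0.3 of 0. The 3 above that bound were around Potri.004G034400.v4.1 (0.39), Potri.001G017500.v4.1 (0.35) and Potri.011G045000.v4.1 (0.31). No member lay in surroundings with a median below -0.5. Such medians were not computed around other eligible genes, so these values are not read as particular to the members.

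Among the nearest genes a slightly larger share was called higher, though this did not fall steadily with distance. Of 241 tested non-members directly next to a member, 95 (39.4%) were called higher by edgeR's quasi-likelihood test at an adjusted p under 0.05 and 74 (30.7%) lower. Over all 26312 tested non-members on numbered chromosomes these shares were 33.0% and 31.6%. The share called higher was 42.3% at 2 rows, 39.3% at 3, 30.1% at 4, 32.8% at 5 and 37.1% at 10 rows. A rise of at least 2-fold was called in 20.7% of the direct neighbours, in 18.3% of those 2 rows away, in 16.7% at 3, in 11.8% at 4, in 12.2% at 5 and in 17.0% at 10 rows, against 13.1% of all. The median log2 fold change of direct neighbours was 0.06, against 0.00 over all. These differences were not tested.

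Replicate pools differed by a few percent for most members. The coefficient of variation (SD over mean of CPM) had a median of 5.59% between wild type libraries and 3.99% between mutant libraries, against 4.39% and 4.96% over all eligible genes. Members had median counts of 237.5 per wild type library and 2217.5 per mutant library, against 499 and 522 over all eligible genes. Their levels are thus unlike in this comparison. The lowest count of any member in any library was 82. The variance between wild type libraries was divided by that of counting alone, and the median over members was 0.917. Over all eligible genes this median was 1.11. With 3 libraries, counting error by itself gives a median below 1, so 0.917 is not read as counting error only. Between mutant libraries the median was 3.70 for the members and 1.39 over all eligible genes. At mutant levels between the quartiles of the members, 73.0 and 194 CPM, the median was 3.49 for 74 members and 2.24 for 2527 eligible non-members. The median coefficient of variation between mutant libraries in this range was 3.91% for the members and 3.31% for the non-members. These differences at like level were not tested.

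The least even member was Potri.014G186600.v4.1 (chromosome 14, 321 bp). It read 5.79, 7.97 and 6.26 CPM in the wild type and 47.0, 76.3 and 48.4 CPM in the mutant, with a coefficient of variation of 28.8% between mutant libraries. Replicate 2 was the highest library in both genotypes. Potri.017G108500.v4.1 (chromosome 17, 647 bp) came next, with 116.5, 78.5 and 96.4 CPM in the mutant, where replicate 2 was the lowest library and the coefficient of variation was 19.6%. Potri.004G182000.v4.1 (chromosome 4, 1348 bp) had 68.7, 86.1 and 87.4 CPM in the mutant and a coefficient of variation of 12.9%. Even in these genes every mutant library was more than 4-fold above every wild type library.

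In the wild type the widest spreads were those of Potri.006G218200.v4.1, Potri.005G032700.v4.1 and again Potri.014G186600.v4.1. Potri.006G218200.v4.1 (chromosome 6, 1025 bp) read 10.5, 9.15 and 7.25 CPM in the wild type and 174.5, 172 and 182 CPM in the mutant, with a plain ratio of 19.7. Potri.005G032700.v4.1 (chromosome 5, 2830 bp) read 5.85, 7.09 and 4.98 CPM and 34.7, 39.9 and 33.9 CPM, with a plain ratio of 6.05. It was 1 of the 2 members that stayed below the median FPKM of the eligible genes in the mutant.

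The small differences between mutant pools were shared by many members. The rule uses only the mean of each genotype, so the order of replicates within a genotype is a separate measure. Mutant replicate 3 was the highest mutant library for 81 members, replicate 1 for 43 and replicate 2 for 26. Over all eligible genes the shares were close to equal, at 32.0% for replicate 3, 34.4% for replicate 1 and 33.6% for replicate 2. Replicate 3 exceeded replicate 2 in 119 members (79.3%), against 49.3% of the eligible genes. The size was slight, with a median of 1.92% above the mean of the mutant libraries for replicate 3 and -2.17% for replicate 2.

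The place of replicate 2 changed steadily with the ratio between genotypes, and that of replicate 3 only from the class of 1 to 1.5 upwards. Replicate 2 was the highest mutant library for 40.7% of genes with a ratio under 0.5, for 36.2% between 0.5 and 1, and then for 32.5%, 30.2%, 26.8% and 23.2% in the classes from 1 to 1.5, 1.5 to 2, 2 to 3 and 3 to 4.91, down to 17.3% of the members. Replicate 3 was highest for 33.7%, 33.0%, 30.1%, 31.0%, 35.6% and 41.1% of genes in the same 6 classes, and for 54.0% of the members. In the wild type, replicate 1 was the highest library for 68 members, replicate 2 for 48 and replicate 3 for 34, and the classes below the members gave no such steady order. Genes within a library are not independent of each other, classes of high level have less counting error, and whether these differences come from plants, sampling or library preparation was not tested.

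**Figure D5:**
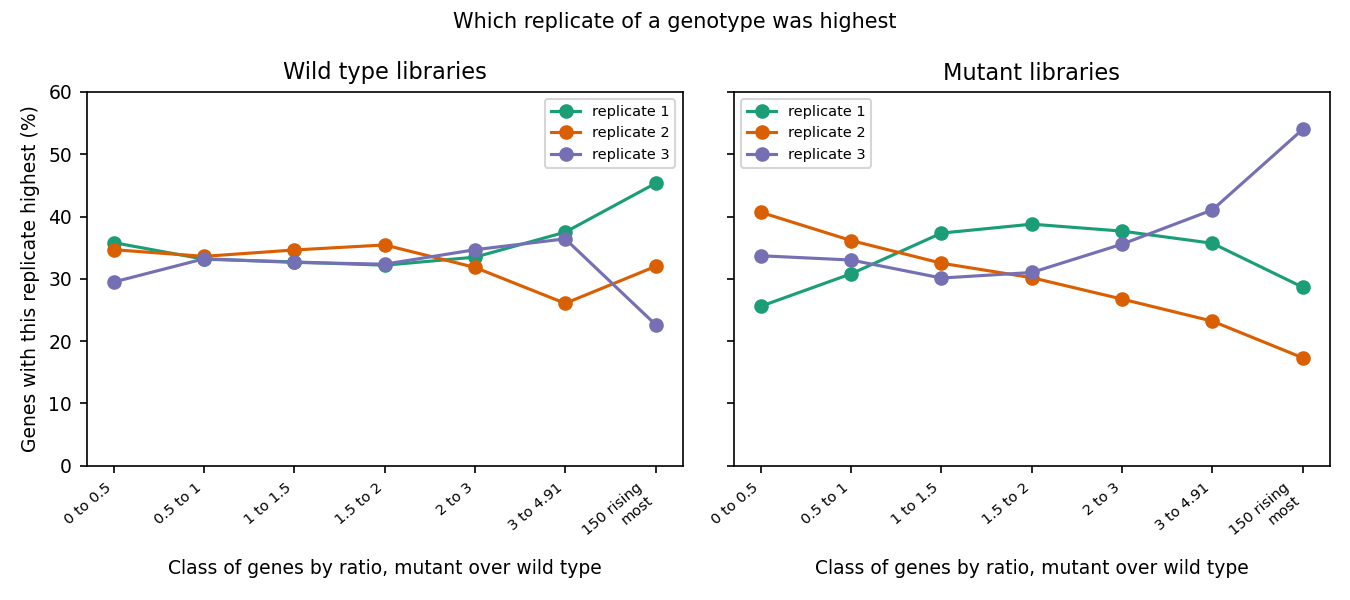
Share of genes (vertical axis, %) for which each replicate was the highest library of its genotype, by class of the ratio mutant over wild type (horizontal axis), for wild type (left) and mutant (right) libraries. In the mutant, the line of replicate 2 falls from 40.7% to 17.3% and that of replicate 3 ends at 54.0%.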

How the data were processed

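RNA of 6 poplar stem libraries was sequenced by the authors with standard Illumina library preparation, per the labels' protocols. The aligner, the counter, the build and the handling of ambiguous reads are not given in the sources. Raw whole-number counts were deposited for each gene, per the file headers. The deposited FPKM columns, per the file headers, hold counts scaled by gene length and library total. Dividing counts by FPKM gave whole base numbers (tolerance 0.01 bp) in 100% of 185484 values above 0, and these lengths are the ones used. All columns matched a sample by title.

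CPM used the column totals. The 150 genes followed the rule given above (1 CPM added to both means, a wild type minimum of 5 CPM). Over all genes passing filterByExpr (minimum count 10, minimum total 15), edgeR 4.0.16 in R 4.3.3 compared the genotypes with TMM factors, a quasi-likelihood F test without a block and Benjamini-Hochberg adjustment. The edgeR fit was tested on simulated data. Its p-values weigh the difference between genotypes against the spread between pools, estimated with information shared over genes. DESeq2 1.42.0 and limma 3.58.1 were alternatives. Named genes are the 10 of highest ratio, the 10 highest in mutant FPKM, the 5 highest in wild type FPKM, 3 on each side of the limit, any runs of neighbours, and the 3 with the widest spread in each genotype. The members and this rule were chosen with earlier results of these data known. The keyword classes of gene function that were planned had no descriptions to match and were not run, and no sequences were used here.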

Additional observations from a re-analysis of the deposited data

How the results depend on the processing

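Of the 150 members, 134 were chosen again whichever library was left out, with 145 to 147 kept each time. TMM factors or DESeq2 size factors kept 148, a pseudocount of 0.1 CPM 145, one of 5 CPM 138 and FPKM in place of CPM 111, since 39 members have a wild type mean under 5 FPKM. A wild type minimum of 1 CPM kept 66 and one of 10 CPM kept 92, which removes by construction the 58 members under 10 CPM. Only 25 members were chosen under all 13 settings, and 0 of the 10 of highest ratio, which all lie under 10 CPM in the wild type.

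The median log2 ratio of the chosen genes was 2.92. It was 2.80 with TMM factors, 2.79 with DESeq2 size factors, 2.65 with FPKM, 3.00 and 2.57 with pseudocounts of 0.1 and 5 CPM, and 3.58 and 2.45 with minima of 1 and 10 CPM. Without 1 library it ran from 2.89 to 2.95. The ratio of summed CPM, 8.28, became 7.64, 7.60, 7.33, 8.75, 7.48, 14.8 and 6.15 in the same order of settings, and 8.04 to 8.39 without 1 library. Members next to another member numbered 8 with FPKM, 15 with a minimum of 1 CPM, 2 to 6 without 1 library (2 without wild type replicate 2) and 6 when up to 2 identifiers could lie between.

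Mutant replicate 1 was the highest mutant library for 42 to 94 of the chosen genes without 1 library, with 94 when mutant replicate 3 was left out and 1 other remained. Replicate 3, a count added after seeing the data, was highest for 83 with TMM factors, 90 with DESeq2 size factors and 79 to 118 without 1 library. Over all tested genes, 8176 (DESeq2) to 11718 (library totals only) were called higher, against 9059. All 150 members were called under each of these fits, and all 38 genes of the naming rule or named for their position kept direction and call in 12 alternatives each, which their choice makes likely.

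The labels state no pairing of same-numbered libraries of both genotypes. Their deviations correlated at -0.04, -0.01 and -0.03 over the eligible genes, and these deviations hold much counting error. Whether such libraries shared a batch was not tested. With the replicate block, 8943 genes and 150 members were called higher. Genes with few counts limit the lower end of the list, where 14 members had under 100 counts in a wild type library.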

Other observations

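The conditions of the rule leave other genes with ratios as high aside. On numbered chromosomes, 357 genes with a wild type mean under 5 CPM reached a ratio of at least 4.91, more than the 150 taken. Outside the numbered chromosomes, 2 of the 275 rows with a wild type mean of at least 5 CPM did so. In the opposite direction, 77 of the 19059 eligible genes were lower in the mutant by a ratio of at least 4.91. The added 1 CPM limits how far a gene of low wild type level can fall by this ratio, while rises have no such limit. The counts of the 2 directions are therefore not alike. Identifiers that do not end in 00 made up 4.67% of the members and 4.16% of the eligible genes, and the symbol column was empty for 1 member and for 426 eligible genes.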
